A study of Mus musculus with 2 samples.

Results

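Transcripts of the basement membrane collagens were examined in the thoracic aorta of the mouse. The genes were the 6 collagen IV genes (Col4a1, Col4a2, Col4a3, Col4a4, Col4a5 and Col4a6) and the genes of collagens XV and XVIII (Col15a1 and Col18a1), found by symbol. All 8 were among the 32287 features that were counted. The data came from single-cell RNA sequencing of 2 wild-type (WT) aortas from separate animals, in a study of TGF-β receptor deletion in smooth muscle cells (SMCs). The donors were GFPiSMC mice, C57BL/6J animals carrying Myh11-CreERT2 and the mT/mG reporter. In these mice the Myh11 promoter, active in SMCs, drives a Cre recombinase that tamoxifen switches on, and recombined cells change from red to green membrane fluorescence. Both mice had received tamoxifen (1 mg per day, intraperitoneal) for 5 days from 3 weeks of age and were analyzed at 12 weeks. Both aortas therefore carried the same genotype and treatment, no untreated or mutant aorta entered, and the comparisons were between cell types within these aortas. Digestion was done in the cold, and living singlets were taken by flow sorting whether or not they carried the reporter, so cell numbers reflect what the digestion released.

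Collagen IV is the sheet-forming collagen of basement membranes, the thin matrix layers under endothelium and mesothelium and around each SMC. Its chains assemble only in set combinations. The chains of Col4a1 and Col4a2 form the trimer of nearly all basement membranes, those of Col4a3, Col4a4 and Col4a5 form a trimer best known from the kidney filter, and those of Col4a5 and Col4a6 form a trimer known from smooth muscle and Bowman's capsule. Collagens XV and XVIII are multiplexins, which carry glycosaminoglycan chains and sit at the outer face and within the basement membrane, and the end fragment of collagen XVIII is endostatin.

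The collagen IV genes lie in head-to-head pairs in the mouse genome (GRCm38). Col4a1 (chromosome 8, 11198423 to 11312826, minus strand) and Col4a2 (chromosome 8, 11312805 to 11449287, plus strand) overlap by 22 bases at their starts. Col4a4 (chromosome 1, 82448423 to 82586849, minus) starts 72 bases from Col4a3 (chromosome 1, 82586921 to 82722059, plus). Col4a6 (chromosome X, 141165403 to 141474076, minus) starts 1309 bases from Col4a5 (chromosome X, 141475385 to 141689234, plus). Col15a1 (chromosome 4, 47208161 to 47313167, plus) and Col18a1 (chromosome 10, 77052178 to 77166548, minus) stand alone. The RefSeq start windows of Col4a1 (chr8:11312777-11313076, minus strand) and Col4a2 (chr8:11312555-11312854, plus strand) are shown because the 2 genes that went together most closely across cell types share this start region. Each window runs from 250 bases before to 50 bases after the RefSeq start in GRCm38.p6, and the capitals mark the 78 bases that both windows hold, read on opposite strands.
Col4a1: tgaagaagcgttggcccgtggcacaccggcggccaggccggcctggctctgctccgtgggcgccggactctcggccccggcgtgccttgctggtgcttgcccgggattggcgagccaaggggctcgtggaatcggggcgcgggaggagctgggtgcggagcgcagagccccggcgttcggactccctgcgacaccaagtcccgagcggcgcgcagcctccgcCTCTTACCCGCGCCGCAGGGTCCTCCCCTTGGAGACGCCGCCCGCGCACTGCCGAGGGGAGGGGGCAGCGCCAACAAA
Col4a2: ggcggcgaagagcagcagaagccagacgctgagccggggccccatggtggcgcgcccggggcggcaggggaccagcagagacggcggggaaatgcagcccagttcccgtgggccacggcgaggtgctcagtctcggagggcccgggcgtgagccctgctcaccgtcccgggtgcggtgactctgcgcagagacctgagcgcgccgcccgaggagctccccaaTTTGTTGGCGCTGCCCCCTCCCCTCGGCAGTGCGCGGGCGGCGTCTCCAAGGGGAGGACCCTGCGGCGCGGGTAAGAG
These windows held 74% and 73.7% G and C, against a median of 52.7% over 32851 RefSeq windows of the same length. Searched on both strands, the letters CCAAT occurred in both windows and in 37.4% of all windows, and the letters GGGCGG also occurred in both and in 35.7% of all. The letters TATAAA, found in 13.6% of windows, occurred in neither. A window was matched for 7 of the 8 genes, Col4a3 being the one not matched.

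The deposited matrices held 8947 and 6263 cells with 47009780 and 30919996 unique molecular identifiers (UMIs). Here and below, paired values are aorta 1 and aorta 2 in that order. After filters and removal of 205 and 84 called doublets, 6539 and 4614 cells remained, with a median of 5671 and 5396.5 UMIs. The labels give 6278 and 4300 cells after the study's own filtering. Of all barcodes, 18 occurred in both libraries. Cells were clustered with the 8 genes left out and the clusters were named from markers, which gave 2362 and 1708 SMCs, 1501 and 1048 fibroblasts, 785 and 730 endothelial cells, 274 and 158 mesothelial cells, 907 and 572 myeloid cells and 619 and 360 lymphocytes, with 23 and 14 erythroid cells. The names of the 4 structural types held against their defining genes. Myh11, the smooth muscle myosin, was at 4662 and 4287 UMIs per 1000000 UMIs of the type (CPM) in SMCs and at 79.2 and 46.9 in fibroblasts. Dcn, a proteoglycan of fibroblasts, was at 16085 and 15223 CPM in fibroblasts, 221 and 195 in SMCs, and 5193 and 6124 in mesothelial cells. Pecam1 was at 3622 and 3853 CPM in endothelial cells and Msln at 1495 and 1443 in mesothelial cells. The 10 fibroblast markers, all detected in every structural type, summed to 50793 and 52361 CPM in fibroblasts, 2442 and 2493 in SMCs, 2004 and 1965 in endothelial cells and 6643 and 8612 in mesothelial cells, and the part of such RNA in the collagen values of other types was not tested.

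UMIs were counted from the 3′ end and not divided by length, so each gene was compared between cell types and not with other genes. A gene was called where the adjusted p was under 0.05 and the log2 fold change exceeded 1 in size, in a fit over 13969 genes. The 2 libraries give each cell type 2 sums. The p-values rest on the spread between the 2 sums of a type or subset, pooled over all types or subsets and partly shared across genes. The types of 1 animal were treated as independent there, and no spread beyond these 2 animals was measured.

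SMCs and fibroblasts differed in 3 of the 8 genes by this rule. Col18a1 was higher in SMCs, where 10.3% of all tested genes were called higher, and Col4a3 and Col4a4 were higher in fibroblasts, where 16.3% were. Between SMCs and endothelial cells, 5 genes were higher in SMCs (Col4a2, Col4a5, Col4a6, Col15a1 and Col18a1; 14.1% of all genes) and Col4a3 and Col4a4 were higher in endothelial cells (15.6% of all). Between SMCs and mesothelial cells, 6 were higher in SMCs (13.9% of all genes), and the remaining 2, again Col4a3 and Col4a4, were higher in mesothelial cells (15.2%). The median log2 fold change of the 8 genes in these comparisons was 0.48, 2.31 and 2.43, against -0.10, 0.00 and 0.08 over all genes. Endothelial cells against fibroblasts gave 1 gene higher in endothelial cells (Col18a1; 11.5% of all) and 3 higher in fibroblasts (Col4a5, Col4a6 and Col15a1; 14.6%). In mesothelial cells against fibroblasts, 6 genes were lower (13.9% of all genes were). Col18a1 alone had a positive difference there (0.77, adjusted p = 0.00425, but up to 0.111 in alternative settings). That was under the size set for a call, while 10.5% of all genes were called higher. Col4a1 and Col4a3 were higher in endothelial than in mesothelial cells (13.1% of all) and Col4a5 and Col4a6 were lower (12.6%). The Col4a5 call (-1.05) was lost with cells of 5000 to 25000 UMIs (-0.86) and with doublets kept (-0.65).

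**Figure D1:**
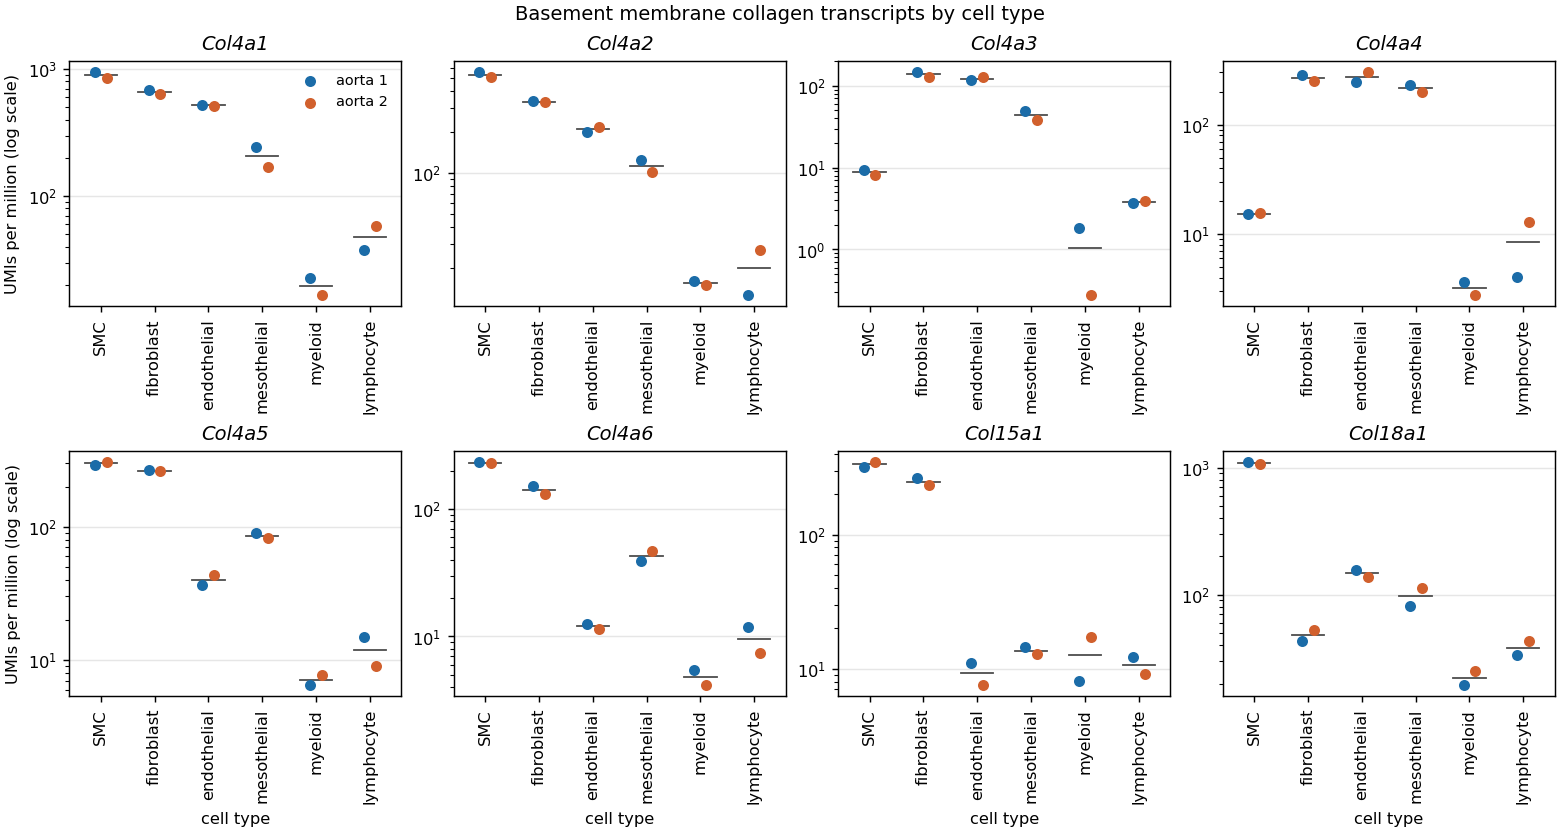
Level of each basement membrane collagen gene in CPM (log axis) by cell type, with 1 point for each of the 2 aortas and a short line at their mean. Col18a1 sat above 1000 CPM in SMCs and below 200 CPM in every other structural type, whereas Col4a3 and Col4a4 were lowest in SMCs among the 4 structural types.

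Col4a1 and Col4a2, the chains of the common collagen IV trimer, were found in all 4 structural types and were highest in SMCs. Col4a1 was at 945 and 859 CPM in SMCs (mean 902 ± 61.2 (SD, n = 2)), 685 and 641 in fibroblasts, 524 and 517 in endothelial cells and 243 and 170 in mesothelial cells. The ranges of the 2 aortas did not overlap between any of these types. SMCs exceeded fibroblasts in Col4a1 by 0.49 on the log2 scale (SE 0.16, adjusted p = 0.0156, but 0.343 with DESeq2), under the size set for a call. They exceeded endothelial cells by 0.998 (SE 0.17, adjusted p = 3.27e-05), just inside that limit, and mesothelial cells by 2.37 (SE 0.18, adjusted p = 6.63e-10). Col4a2 was at 554 and 508 CPM in SMCs, 338 and 332 in fibroblasts, 201 and 220 in endothelial cells and 124 and 102 in mesothelial cells. Its order over the types was the same as that of Col4a1, with each neighboring pair past an adjusted p of 0.05. SMCs exceeded fibroblasts in Col4a2 by 0.71 (SE 0.13, adjusted p = 0.000119), endothelial cells by 1.54 (adjusted p = 7.11e-09) and mesothelial cells by 2.48 (adjusted p = 3.29e-11).

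The balance of the 2 chains differed between SMCs and endothelial cells. There were 0.587 and 0.592 Col4a2 UMIs per Col4a1 UMI in SMCs (95% intervals 0.572 to 0.602 and 0.573 to 0.611), 0.494 and 0.518 in fibroblasts, and 0.384 and 0.426 in endothelial cells (0.350 to 0.421 and 0.386 to 0.471). The SMC and endothelial intervals did not overlap in either aorta. Mesothelial cells had 0.509 and 0.599 (0.431 to 0.599 and 0.464 to 0.769), which overlapped SMCs in both. These and later intervals cover counting error only. In lymphocytes, which are not known to build a basement membrane, Col4a1 was at 37.5 and 58.3 CPM and Col4a2 at 12.5 and 27.2, and in myeloid cells they were at 22.7 and 16.6 and at 15.9 and 14.9.

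Col4a3 and Col4a4, which with Col4a5 build the trimer of the kidney filter, followed the opposite pattern. Col4a3 was at 146 and 128 CPM in fibroblasts, 118 and 127 in endothelial cells, 49.2 and 37.7 in mesothelial cells and 9.40 and 8.06 in SMCs. The fibroblast values lay just above the endothelial ones, and both were far above SMCs. The difference between SMCs and fibroblasts was -3.92 on the log2 scale (SE 0.14, adjusted p = 1.96e-15), a 15.1-fold lower level in SMCs, and that between SMCs and endothelial cells -3.59 (adjusted p = 1.86e-14). Endothelial cells lay below fibroblasts by 0.33 on average (log2 fold change -0.33, adjusted p = 0.0368). Over the alternative settings this difference was -0.48 to -0.09 with an adjusted p of up to 0.701, so it did not hold in each. Col4a4 was at 284 and 248 CPM in fibroblasts, 247 and 301 in endothelial cells, 229 and 198 in mesothelial cells and 15.2 and 15.5 in SMCs. The fibroblast and endothelial values overlapped, and their difference of -0.12 (SE 0.13) was not resolved (adjusted p = 0.493). SMCs differed from fibroblasts in Col4a4 by -4.07 (SE 0.16, adjusted p = 4.31e-15), from endothelial cells by -3.95 (adjusted p = 8.80e-15) and from mesothelial cells by -3.54 (adjusted p = 1.99e-13).

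The low Col4a3 and Col4a4 counts of SMCs came in part from 1 subset, number 5, with fibroblast markers among its leading genes. Without this and 2 small subsets (11 and 12) led by markers of another class, a step chosen after seeing the data, Col4a3 in SMCs was at 5.60 (95% interval 4.51 to 6.87) and 5.33 CPM (4.09 to 6.84), and Col4a4 at 8.06 and 9.98. Lymphocytes had 3.72 (1.86 to 6.66) and 3.96 CPM (1.59 to 8.16) of Col4a3 and 4.06 and 13.0 of Col4a4. Of their 11 and 7 Col4a3 UMIs, 7 and 3 came from cluster 25 (42 and 32 cells; led by Hist1h1b and Top2a), at 16.5 and 7.60 CPM. For all SMCs the Col4a3 intervals were 8.02 to 11.0 and 6.55 to 9.82 CPM, which did not overlap lymphocytes in aorta 1. For the SMCs left without those subsets they overlapped in both aortas, and no difference from lymphocytes was resolved with cluster 25 kept among them. Myeloid cells were lower, at 1.82 (0.911 to 3.26) and 0.276 CPM (0.00700 to 1.54), with no overlap. Mesothelial cells had 4.65 and 5.26 Col4a4 UMIs per Col4a3 UMI, against 1.94 and 1.93 in fibroblasts and 2.09 and 2.36 in endothelial cells. The mesothelial intervals (3.69 to 5.92 and 3.71 to 7.66) lay above those of both other types in each aorta. Against fibroblasts, mesothelial cells had less Col4a3 by 1.85 (log2 fold change -1.85, adjusted p = 9.22e-09). They differed in Col4a4 by -0.53 (adjusted p = 0.00567, but up to 0.122 in alternative settings). Their summed fibroblast markers were 6643 and 8612 CPM, and the part of such RNA was not tested.

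Col4a5 and Col4a6, the chains of the trimer known from smooth muscle, were high in both SMCs and fibroblasts and low in endothelium. Col4a5 was at 293 and 306 CPM in SMCs, 266 and 260 in fibroblasts, 89.6 and 82.3 in mesothelial cells and 36.7 and 43.5 in endothelial cells. SMCs and fibroblasts did not overlap, but their log2 difference of 0.23 (SE 0.11) was not past the threshold (adjusted p = 0.097). SMCs exceeded endothelial cells in Col4a5 by 3.11 (SE 0.15, adjusted p = 1.02e-13), or 8.64-fold, and mesothelial cells by 2.06 (adjusted p = 1.28e-10). Col4a6 was at 233 and 231 CPM in SMCs, 151 and 131 in fibroblasts, 39.3 and 46.6 in mesothelial cells and 12.5 and 11.5 in endothelial cells. It was higher in SMCs than in fibroblasts by 0.76 (SE 0.10, adjusted p = 2.61e-06), under the size set for a call, and exceeded endothelial cells by 4.47 (adjusted p = 1.86e-15). The endothelial level of Col4a6 was close to that of lymphocytes, at 11.8 and 7.36 CPM. Per Col4a5 UMI there were 0.797 and 0.754 Col4a6 UMIs in SMCs (0.764 to 0.830 and 0.718 to 0.792) and 0.567 and 0.505 in fibroblasts (0.531 to 0.606 and 0.464 to 0.549), with no overlap of the intervals.

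Col15a1, the collagen XV gene, was found in SMCs and fibroblasts and, summed over each type, was near the level of blood cells elsewhere. It was at 321 and 346 CPM in SMCs (mean 334 ± 17.6 (SD, n = 2)), 264 and 233 in fibroblasts, 14.4 and 12.9 in mesothelial cells and 11.0 and 7.51 in endothelial cells. Lymphocytes had 12.2 and 9.05 CPM, and the counting intervals of the endothelial and mesothelial levels overlapped those of lymphocytes, which should lack the gene. Without endothelial subsets 10 and 11, led by fibroblast and by SMC markers, the endothelial level was 9.30 and 2.84 CPM, from 28 and 7 UMIs. This step was chosen after seeing the data, and subset 0, with Hbb-bs and S100b among its leading genes, was kept. Of the 26 and 13 mesothelial UMIs, 14 and 7 came from the 19 and 5 cells of cluster 28 (64.0 and 99.9 CPM), and the main mesothelial cluster was at 7.55 and 6.39 CPM. SMCs exceeded fibroblasts by 0.47 (SE 0.13, adjusted p = 0.00383, but 0.502 with DESeq2) and endothelial cells by 5.34 (SE 0.21, adjusted p = 4.40e-15). Endothelial cells were lower than fibroblasts by 4.88 (log2 fold change -4.88, adjusted p = 3.39e-14), and their difference from mesothelial cells was not resolved (-0.49, SE 0.39, adjusted p = 0.358).

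Col18a1, the collagen XVIII gene from which endostatin is cut, had the largest share of its UMIs in SMCs of the 8 genes. Its level was 1101 and 1074 CPM in SMCs (mean 1087 ± 19.4 (SD, n = 2)), 158 and 138 in endothelial cells, 81.8 and 113 in mesothelial cells and 43.5 and 52.3 in fibroblasts. No range of 1 type overlapped that of another. SMCs exceeded fibroblasts by 4.56 (SE 0.18, adjusted p = 6.44e-15), or 23.5-fold, endothelial cells by 3.08 (adjusted p = 1.37e-12) and mesothelial cells by 3.79 (adjusted p = 3.95e-13). Endothelial cells exceeded fibroblasts by 1.48 (SE 0.18, adjusted p = 4.46e-07). Fibroblasts, with 43.5 and 52.3 CPM, were close to all lymphocytes, with 33.5 and 43.0, and the intervals overlapped in both aortas. Of the 99 and 76 lymphocyte UMIs, however, 38 and 59 came from cluster 25, at 89.6 and 149 CPM. Lymphocyte clusters 9 (21.0 and 9.20 CPM), 13 (24.8 and 23.2) and 26 (9.04 and 0) lay below fibroblasts in both aortas. Cluster 16 was at 44.3 and 0 CPM, from 13 and 0 UMIs. Whether the overlap holds without cluster 25 was not tested. Both multiplexin genes were highest in SMCs, but their balance differed between SMCs and fibroblasts. The UMIs of Col18a1 per UMI of Col15a1 were 3.43 and 3.10 in SMCs and 0.165 and 0.225 in fibroblasts. Col18a1 has 2 RefSeq start windows, and 3′ counts cannot separate its isoforms. Whether counting used the strand is not given in the sources used here. Slc19a1, which overlaps Col18a1 on the other strand, had 4.10 and 2.93 CPM in SMCs.

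SMCs made up 36.1% and 37.0% of the cells and 42.7% and 44.4% of all UMIs, and they supplied over 50% of the UMIs of 6 of the 8 genes. For Col18a1 the SMC share was 93.7% and 93.2%. It was 72.0% and 75.2% for Col4a6, 70.0% and 68.6% for Col4a2, and 68.3% and 72.9% for Col15a1. Col4a1 (65.4% and 65.0%) and Col4a5 (64.3% and 66.6%) were the lowest of the 6. The 2 exceptions were Col4a3, with 8.18% and 7.75%, and Col4a4, with 6.43% and 6.91%. Fibroblasts supplied most of these, with 67.6% and 63.4% of Col4a3 and 63.8% and 57.0% of Col4a4, followed by endothelial cells with 18.6% and 25.2% and with 19.0% and 27.7%. Mesothelial cells, 4.19% and 3.42% of the cells, supplied 9.98% and 7.28% of Col4a4. Such shares depend on the cells that the digestion and sort recovered, and endothelial cells were 12.0% of cells in aorta 1 and 15.8% in aorta 2.

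**Figure D2:**
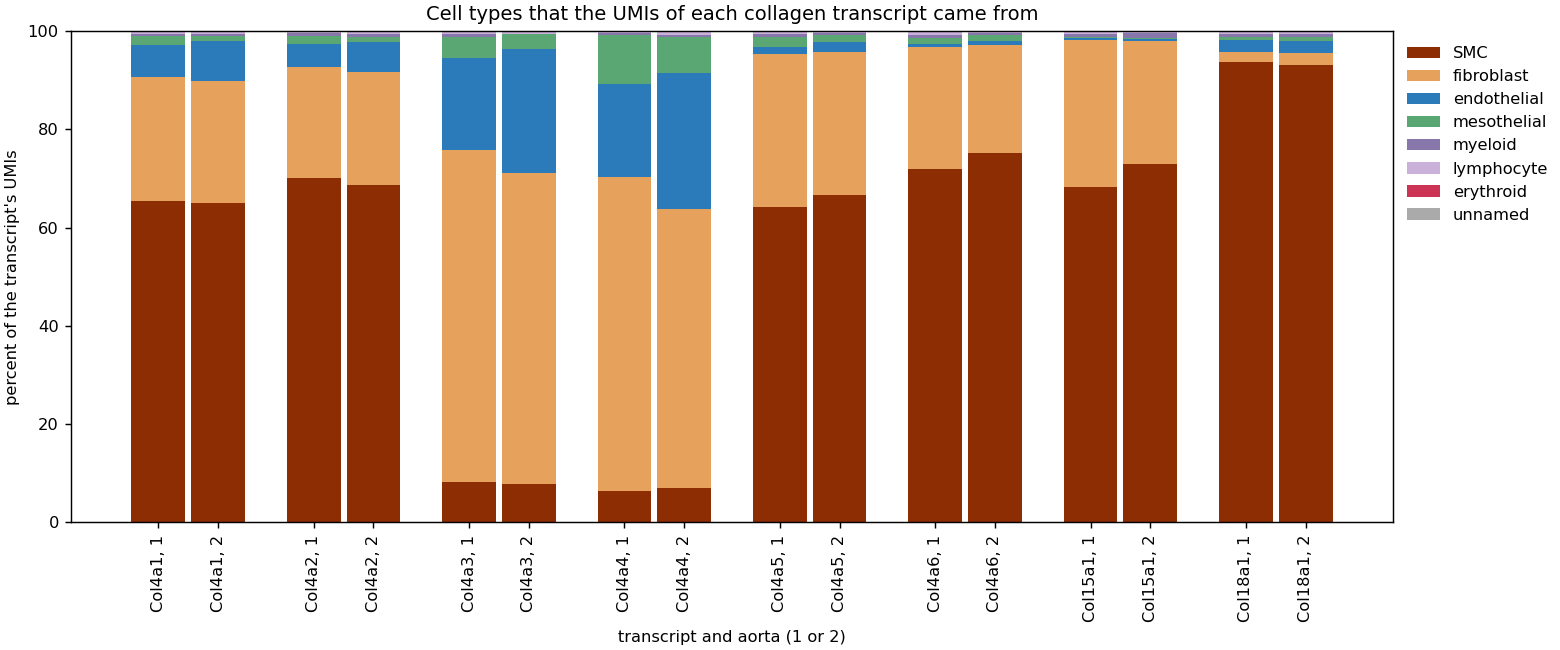
Share of the UMIs of each gene (percent, y axis) that came from each cell type, in aortas 1 and 2 side by side. SMCs supplied over 50% of the UMIs of 6 genes, and fibroblasts and endothelial cells supplied most of Col4a3 and Col4a4.

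The share of cells with a transcript gave the same picture once each cell was thinned to 1000 UMIs. Col18a1 was seen in 56.9% and 57.7% of thinned SMCs, 4.46% and 4.20% of fibroblasts and 2.10% and 1.39% of lymphocytes, while without thinning the SMC share was 85.9% and 87.5%. Col4a3 was seen in 13.3% and 11.1% of thinned fibroblasts, 10.4% and 10.1% of endothelial cells and 0.847% and 0.527% of SMCs. The SMC share of Col4a3 did not stand apart from lymphocytes, with 0.323% and 0.556%. Unthinned, SMCs had 4.91% and 4.04% and lymphocytes 0.969% and 1.39%, at median depths of 7631 and 7450 and of 4081 and 3876.5 UMIs. Col15a1 was seen in 24.1% and 26.7% of thinned SMCs, 18.5% and 19.5% of fibroblasts, 0.510% and 0.685% of endothelial cells and 1.29% and 0.833% of lymphocytes. The share over all endothelial cells was no higher than that of lymphocytes. Col4a6 in endothelial cells, at 1.02% and 1.23% against 0.646% and 0.556% in lymphocytes, was likewise within the counting intervals of background.

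The 3 gene pairs that lie head to head also went together in level. Over the 14 sums of 7 cell types and 2 aortas, Pearson's r of log2(CPM + 1) was 0.989 for Col4a1 with Col4a2, 0.976 for Col4a5 with Col4a6 and 0.973 for Col4a3 with Col4a4. These were ranks 1, 2 and 3 of the 28 pairs of the 8 genes. These points share libraries and the depth of each type, and the correlations are descriptions. They include myeloid, lymphocyte and erythroid sums, low in most of the genes, so the gap between structural and blood cells enters each r. The erythroid sum of aorta 2 (14 cells) had 0 UMIs of each collagen IV gene. Over 22 sums of 11 SMC subsets, r was 0.878, 0.911 and 0.835 for the same pairs, again the highest 3 of the 28, and the closest gene to each chain was its neighbor. Col4a3 and Col4a4 were sparse there, and without subset 5 their r was 0.693, rank 5 of 28, behind Col4a1 with Col18a1 (0.843, rank 3) and Col4a2 with Col18a1 (0.748). Over 18 sums of 9 endothelial subsets, r was 0.987 for Col4a3 with Col4a4, 0.847 for Col4a5 with Col4a6 and 0.700 for Col4a1 with Col4a2. Col4a6 was sparse there, with 40 and 29 UMIs over all endothelial cells. Col4a3 and Col4a4 were at or near 0 in endothelial subsets 5 and 8. The gene closest to Col4a1 was instead Col18a1 (0.850), but this held in aorta 2 only. Col4a1 had r of 0.911 and 0.659 with Col4a2 and 0.610 and 0.919 with Col18a1 in aortas 1 and 2. Over 10 sums of 5 fibroblast clusters, the neighbors gave 0.975 (Col4a1 with Col4a2), 0.966 (Col4a5 with Col4a6) and 0.949 (Col4a3 with Col4a4). The gene closest to Col4a4 was Col4a1 (0.952), but in aorta 1 it was Col4a3. Col4a4 had r of 0.997 and 0.955 with Col4a3 and 0.942 and 0.966 with Col4a1 in aortas 1 and 2.

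Col4a5, which can join either the trimer of Col4a3 and Col4a4 or that of Col4a6, was closest to Col4a6 over each of these sets of sums. Its r with Col4a3 was 0.695 over cell types, 0.182 over SMC subsets, -0.209 over fibroblast clusters and 0.502 over endothelial subsets, where its r with Col4a4 was 0.482 and that with Col4a6 0.847. The collagens XV and XVIII, members of 1 family, did not follow each other, with r of 0.508 over cell types (rank 24 of 28), 0.150 over SMC subsets and -0.0922 over endothelial subsets. Over endothelial subsets Col15a1, with few UMIs there, ran against Col4a3 and Col4a4, at -0.85 and -0.86. Col15a1 was closest to Col4a6 over cell types (0.838) and SMC subsets (0.635). Col18a1 was closest to Col4a1 over cell types (0.855).

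**Figure D3:**
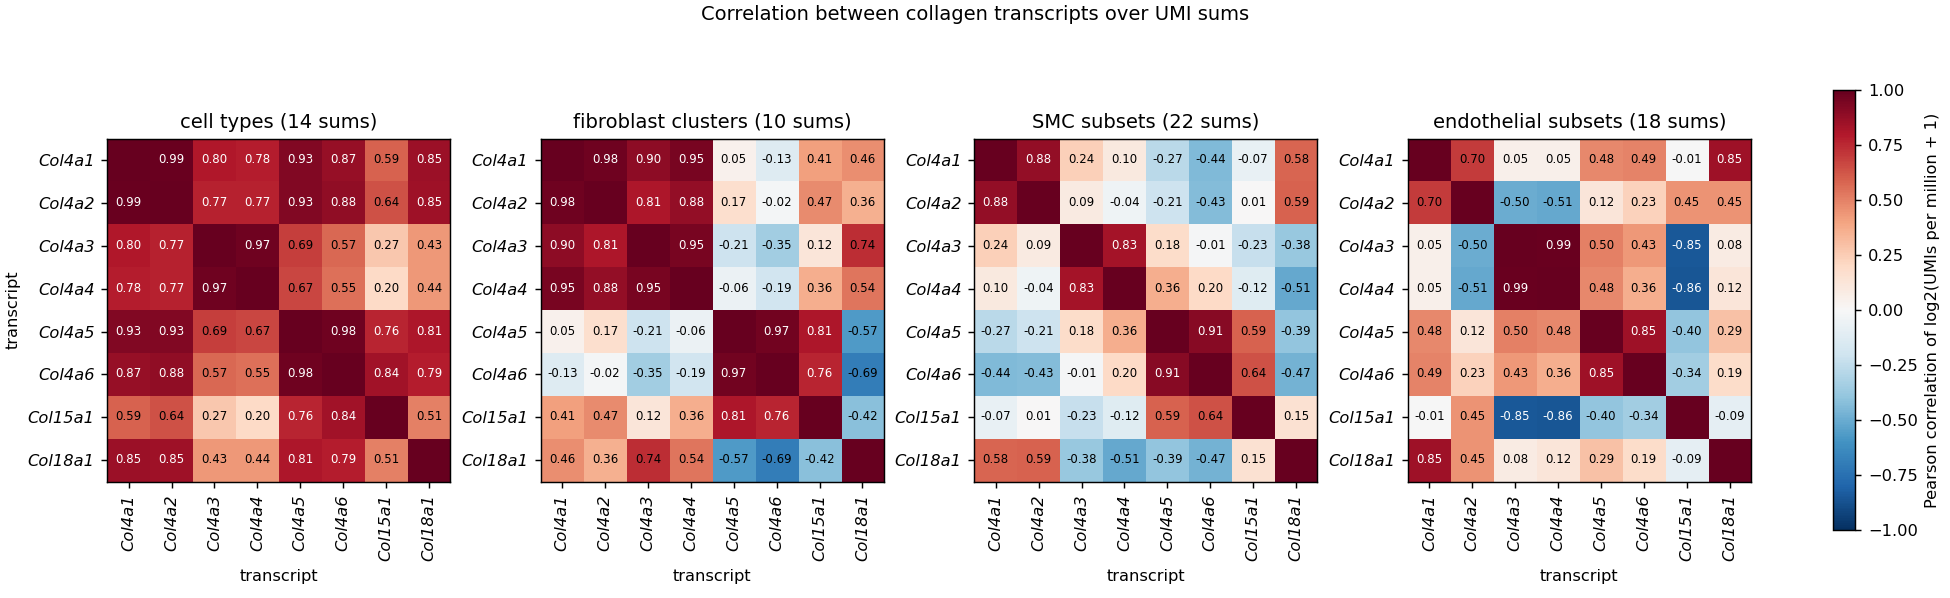
Pearson correlation of log2(CPM + 1) between each pair of the 8 genes (both axes), over sums per aorta of cell types (14), fibroblast clusters (10), SMC subsets (22) and endothelial subsets (18), with color from -1 (blue) to 1 (red). Next to the diagonal, the 3 pairs of collagen IV chains that lie head to head were red in every panel, from 0.700 to 0.989, while Col15a1 with Col18a1 ran from -0.42 to 0.51.

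The chains of a pair were also seen together in single cells, as were those of some other pairs. Among fibroblasts thinned to 1000 UMIs, 93 and 54 cells had both Col4a3 and Col4a4, which was 1.98 and 2.02 times the product of the separate shares. The ratio was 1.99 and 1.96 for Col4a5 with Col4a6 (74 and 42 cells) and 1.39 and 1.37 for Col4a1 with Col4a2 (199 and 142 cells). In endothelial cells it was 1.85 and 2.04 for Col4a3 with Col4a4, from 29 and 30 cells. In SMCs it was 1.17 and 1.17 for Col4a1 with Col4a2 and 1.35 and 1.30 for Col4a5 with Col4a6, while Col4a3 and Col4a4 were seen together in 4 and 0 cells. Other pairs reached like ratios. Col4a5 with Col15a1 gave 1.37 and 1.31 in SMCs (174 and 136 cells), and in fibroblasts Col4a1 with Col4a3 gave 1.47 and 1.55 (124 and 72 cells) and Col4a3 with Col4a5 gave 1.46 and 2.21 (58 and 50 cells). A product of shares takes no account of subsets within a type, so these ratios describe co-occurrence and were not tested.

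SMCs were divided into 13 subsets with the 8 genes left out, and the 11 subsets of 20 or more cells per aorta were tested. Across these, all 8 genes differed (edgeR F test, adjusted p of 2.55e-09 or less for each), where 53.1% of 9600 tested genes did. The subsets were drawn from the same cells by other genes, so this count is read against that share. Without subset 5, which had fibroblast markers among its leading genes, 7 of 8 differed (51.4% of genes) and Col4a4 did not pass (adjusted p = 0.0725).

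Col15a1 was highest in subset 3 (272 and 289 cells; led by Dlx6, Msx2 and Dlx5, homeobox transcription factors), at 718 and 709 CPM, and next in subset 6 (116 and 90 cells; led by Hhip and Krt15), at 468 and 539. The lowest Col15a1 was in subset 9 (65 and 53 cells; Notch3 at 235 and 246 CPM, Kcna5 among its leading genes), at 105 and 89.6. Subset 9 nevertheless held 1139 and 1155 CPM of Col4a1, the highest of the 11 in both aortas. Its Col4a6, at 68.7 and 107 CPM, was the lowest of the 11 in both aortas.

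Col4a5 and Col4a6 were highest in the same 3 subsets. Subset 3 had 478 and 457 CPM of Col4a5 and 372 and 373 of Col4a6, subset 6 had 517 and 547 and 537 and 436, and subset 7 (112 and 67 cells; led by Nrn1, Mme and Mab21l2) had 508 and 508 and 517 and 520. Subset 7 had the lowest Col4a1 of the 11 subsets in both aortas. There Col4a1 was at 456 and 459 CPM, Col4a2 at 252 and 327 and Col18a1 at 401 and 217, while Col15a1 was at 326 and 198, with Dcn at 1421 and 1030 CPM. Col18a1 was highest in subset 2 (356 and 322 cells; Hoxa7 and Hoxb7 among its leading genes), at 1424 and 1336 CPM. It was low in subset 5 (147 and 70 cells), at 316 and 315 CPM, where Col4a3 reached 72.3 and 66.2, Col4a4 reached 130 and 136, and Dcn was at 2315 and 2977 CPM. Subset 5 had fibroblast markers among its leading genes, and the part of fibroblast RNA in its values was not tested. Subset 10 (43 and 47 cells; led by Gdf15 and Cdkn1a) had 604 and 601 CPM of Col4a1 and 651 and 764 of Col18a1. Subsets 0 and 8 had median UMI counts of 1797 and 1735.5 and of 1883 and 1842, below those of the others.

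**Figure D4:**
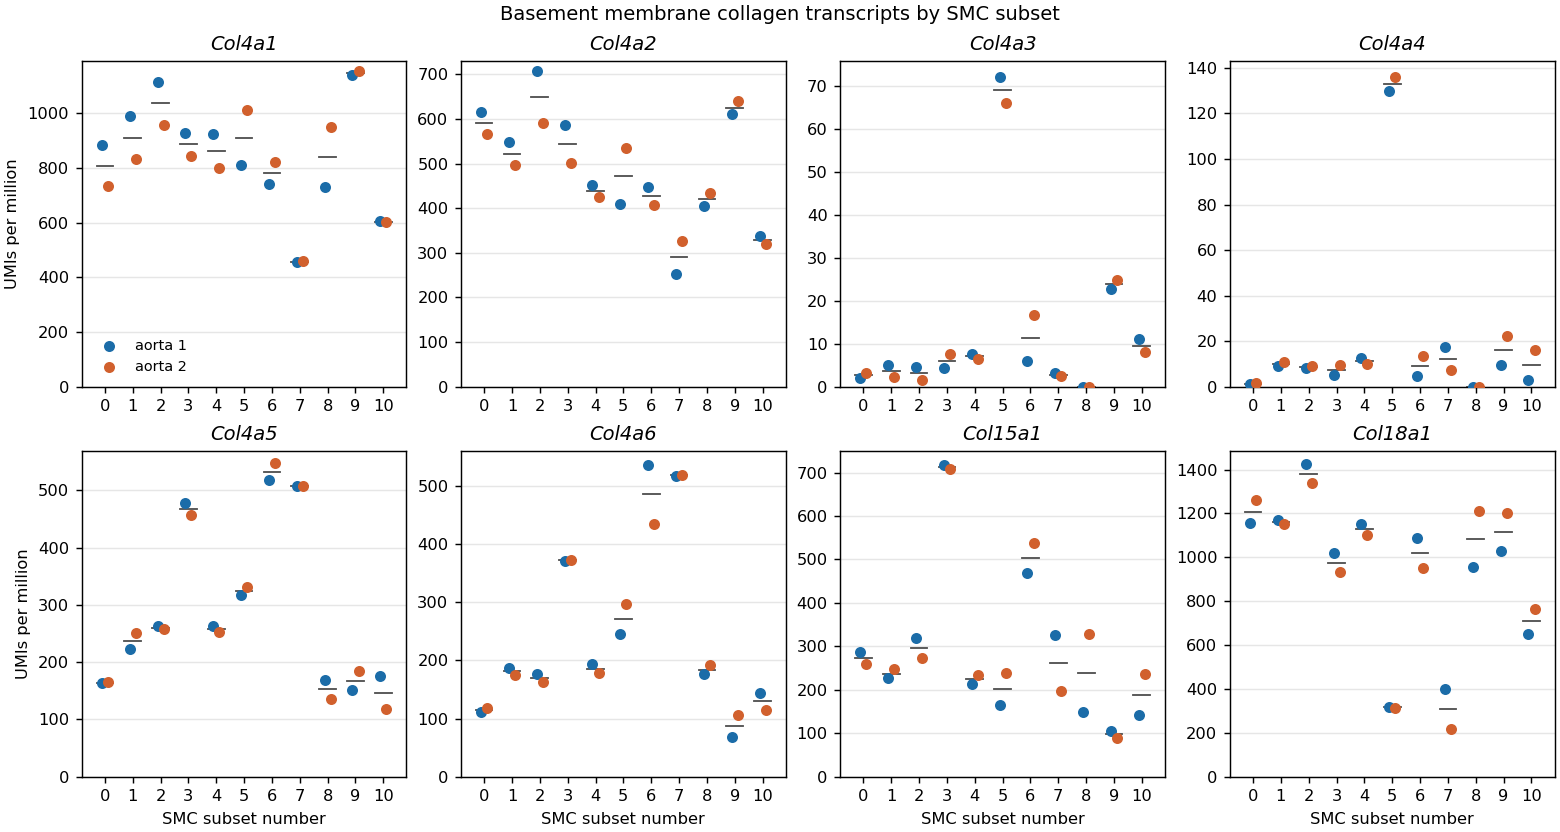
Level of each gene in CPM in the 11 SMC subsets with 20 or more cells per aorta, 1 point per aorta with a short line at the mean. Col15a1 stood highest in subset 3 (718 and 709 CPM), and Col4a5 and Col4a6 stood highest in subsets 3, 6 and 7.

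Fibroblasts fell into 5 clusters, which are given as values without a test. Cluster 5 (519 and 299 cells; led by Dio2, Mmp3 and Lum) had the most of 5 of the 8 genes in both aortas, with 1106 and 1088 CPM of Col4a1, 267 and 292 of Col4a3, 437 and 449 of Col4a4 and 460 and 473 of Col15a1. Cluster 8 (311 and 353 cells; led by Pi16 and Cd248) was low in all but Col18a1 relative to cluster 5, with 325 and 308 CPM of Col4a1, 34.7 and 42.0 of Col4a3 and 57.6 and 38.4 of Col15a1. Pi16-positive cells are known as an adventitial fibroblast population. Cluster 20 (83 and 21 cells) separated the chain pairs. It had 608 and 562 CPM of Col4a5 and 625 and 711 of Col4a6, but 181 and 173 of Col4a1 and 9.45 and 0 of Col4a3, from 5 and 0 UMIs (3 UMIs in aorta 2 would be 18.5 CPM). Its 10 leading genes shared 3 (Mme, Mab21l2 and Angptl1) with those of SMC subset 7, where Col4a5 and Col4a6 were also high.

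Endothelial cells were divided into 12 subsets, 9 of them with 20 or more cells per aorta. All 7 members that entered the test differed across them (edgeR F test, adjusted p of 0.00022 or less), where 32.7% of 7117 genes did, and Col4a6 was too sparse to enter. Col4a3 and Col4a4 stood high in subset 0 (147 and 160 cells; Nkx2-3 among its leading genes, but also the erythroid and Schwann markers Hbb-bs and S100b), with 215 and 209 and with 549 and 558 CPM, and in subset 6 (53 and 50 cells; Twist1 and Hdac9 among its leading genes), with 298 and 199 and with 449 and 515. They were near 0 in the subset with lymphatic markers (subset 5, 46 and 75 cells; Prox1 at 452 and 373 CPM), with 6.20 and 0 CPM of each, from 1 and 0 UMIs (3 UMIs in aorta 2 would be 12.2 CPM). They were also low in subset 4 (90 and 45 cells; led by Slc6a6, Alpl and Igf2, with Sema3g), at 8.16 and 13.4 and at 43.5 and 33.5 CPM.

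Col18a1 was highest in other subsets, with 563 and 435 CPM in subset 4 and 434 and 426 in the lymphatic-like subset, against 52.7 and 52.3 in subset 0. Over all 9 tested subsets its r with Col4a3 and Col4a4 was 0.0816 and 0.121. The direction differed between aortas 1 and 2, at -0.34 and 0.26 for Col4a3 and at -0.25 and 0.27 for Col4a4. Col4a1 was highest of the tested subsets in the lymphatic-like cells too, at 997 and 941 CPM, and was at 357 and 329 in subset 0. Its lowest level in aorta 1 was 251 CPM in subset 2 (118 and 91 cells), which had 235 in aorta 2. The lowest in aorta 2 was 73.5 CPM, from only 4 UMIs, in subset 8 (24 and 24 cells), which had 400 in aorta 1. Col4a5 was at 89.1 and 56.2 CPM in subset 0 and 81.0 and 78.9 in subset 6, and at 6.23 and 4.74 in subset 1. Col15a1 was highest in subset 8, at 121 and 36.8 CPM from 10 and 2 UMIs, and had at most 31.0 CPM in the other tested subsets. Col4a3 and Col4a4 were at 0 UMIs in the 24 and 24 cells of subset 8, where 3 UMIs, the limit taken for a count of 0, would be 36.3 and 55.2 CPM.

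**Figure D5:**
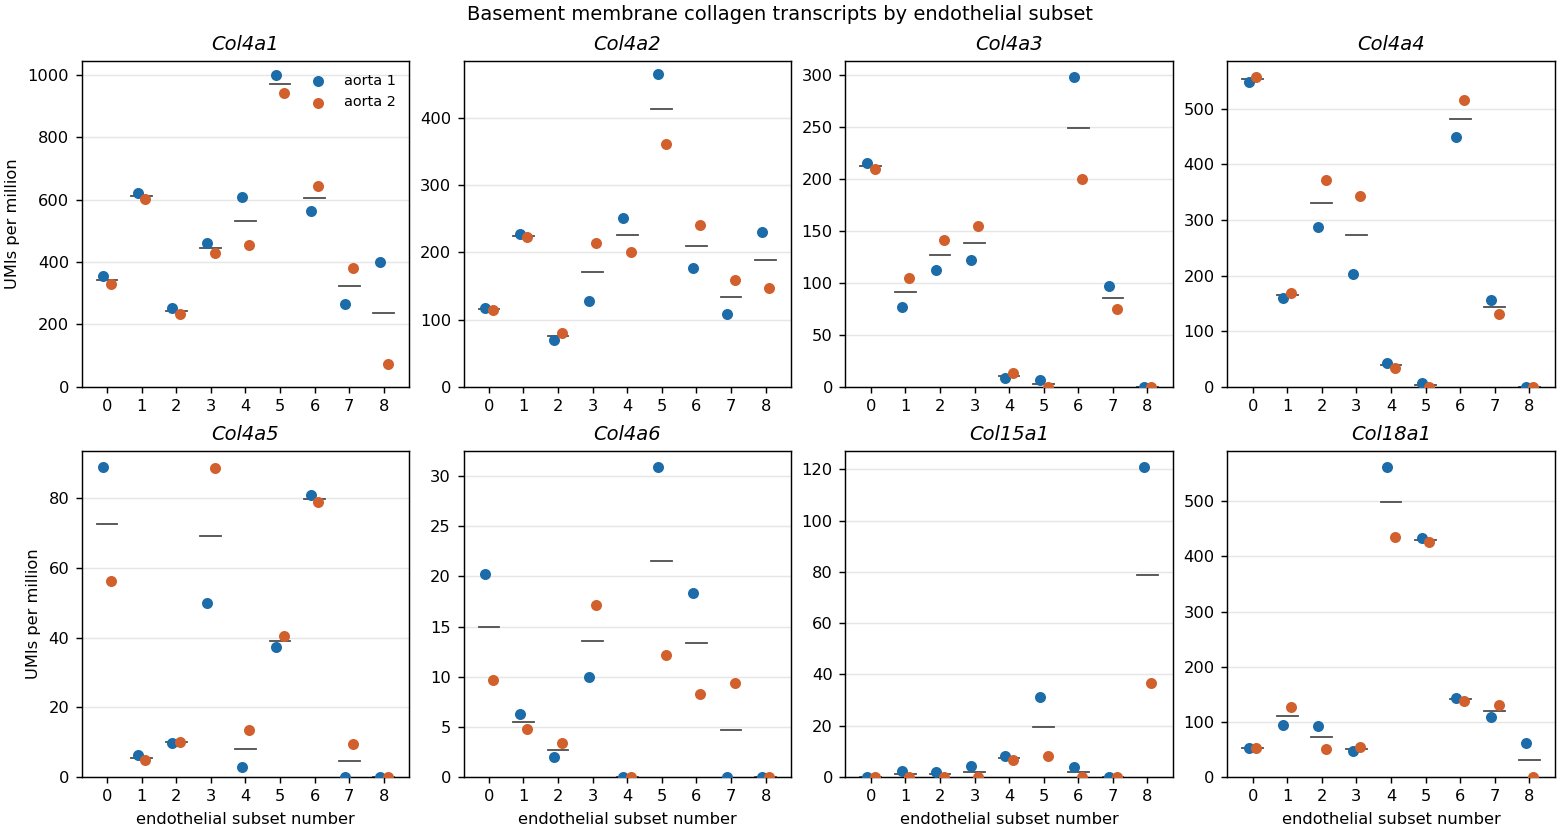
Level of each gene in CPM in the 9 endothelial subsets with 20 or more cells per aorta, 1 point per aorta with a short line at the mean. Col4a3 and Col4a4 were high in subsets 0 and 6 and near 0 in the lymphatic-like subset 5, where Col4a1 and Col18a1 were high.

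Genes most like 4 of the members, other than the 8 themselves, were found by Pearson's r of log2(CPM + 1), as a description. Over the 14 cell type sums (13961 genes compared) those closest to Col4a1 were Hspg2 (0.987), which encodes the basement membrane proteoglycan perlecan, Cd200 (0.984) and Fermt2 (0.979). Those closest to Col4a5 were Dkk3 (0.986), Lhfp (0.981) and Mir100hg (0.977). For Col15a1 they were Cacng7 (0.967), Lrp1b (0.962) and Stk32a (0.959), and for Col18a1 Plcb4 (0.954), Dsp (0.953) and Pbxip1 (0.951). Over the 22 SMC subset sums (9592 genes) they were other genes. Ccn3 (0.799), Myo1c (0.795) and Grk5 (0.787) were closest to Col4a1, and Cdon (0.948), Arhgap10 (0.919) and Cntfr (0.918) to Col4a5. Mfap5 (0.914), Lrrc17 (0.909) and Gaa (0.888) were closest to Col15a1, and Sorl1 (0.805), Itgb1 (0.779) and Ppef1 (0.775) to Col18a1.

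Other genes of the basement membrane, of collagen assembly and of collagen binding are given by their counts of calls, to be read beside the shares of all genes called, since no set test was run. Those shares were 10.3% higher and 16.3% lower for SMCs against fibroblasts, 14.1% and 15.6% against endothelial cells, and 13.9% and 15.2% against mesothelial cells. They were 11.5% and 14.6% for endothelial cells against fibroblasts, 10.5% and 13.9% for mesothelial cells against fibroblasts, and 13.1% and 12.6% for endothelial against mesothelial cells. Of 15 laminin, nidogen, perlecan and agrin genes, 14 were tested, Lama1 not. Against fibroblasts, SMCs had 3 of the 14 higher and 6 lower, led by Lama5 (3.98), Lamc3 (1.20) and Agrn (1.07) and by Lamb1 (-6.81), Nid1 (-5.31) and Lamb3 (-3.71), in log2 fold change. Lamb3 rested on 7 and 5 fibroblast UMIs. Against endothelial cells, 3 were higher in SMCs (led by Lama2 4.14 and Lamc3 3.10) and 4 lower (led by Lamb1 -4.50, Lama3 -3.78 and Nid1 -2.16). SMCs against mesothelial cells gave 4 higher and 6 lower. Endothelial cells against fibroblasts gave 3 higher (led by Lama5, 3.71) and 8 lower (led by Lama2, -7.15), mesothelial cells against fibroblasts gave 5 higher and 6 lower, and endothelial against mesothelial cells gave 3 higher and 5 lower. The median of the 14 was -0.93 for SMCs against fibroblasts and 0.12 against endothelial cells, beside -0.10 and 0.00 over all genes.

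Of 18 enzymes and chaperones of collagen assembly, 16 were tested, and in SMCs against fibroblasts 1 was higher and 7 lower. The higher was P3h2 (3.81), a prolyl hydroxylase acting on collagen IV, and the lower were led by P4ha1 (-1.40), Serpinh1 (-1.35), the collagen chaperone, and P3h3 (-1.25). The median of the 16 was -0.94, beside -0.10 over all genes. Against endothelial cells 4 genes were called, each higher in SMCs, led by P3h2 (2.11), Plod2 (1.40) and Sparc (1.32). Against mesothelial cells 5 were called, each higher in SMCs. Endothelial cells against fibroblasts gave 1 higher and 5 lower, endothelial against mesothelial cells gave 4 higher and 1 lower, and the 8 genes called between mesothelial cells and fibroblasts were each lower in mesothelial cells.

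Among 9 collagen receptors, all tested, SMCs had 5 higher and 3 lower than fibroblasts. Itga10 (2.47), Gpc1 (1.78) and Itgb1 (1.64), the common integrin beta chain, were higher, and Itga11 (-4.83), Itga2 (-4.61) and Ddr2 (-1.37) were lower. The median of the 9 was 1.01, beside -0.10 over all genes. Against endothelial cells 4 were called, each higher in SMCs, with Ddr2 at 3.61. Itga11 had 0 UMIs in endothelial cells and was at least 29.2-fold higher in fibroblasts, against a floor of 3 UMIs per library. SMCs against mesothelial cells gave 4 higher and 2 lower, endothelial and mesothelial cells against fibroblasts each gave 2 higher and 4 lower, and endothelial against mesothelial cells gave 2 higher and 3 lower.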

How the data were processed

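Per the labels and the paper's methods, thoracic aortas were digested cold, viable singlets were sorted, and 3′ v3.1 libraries were made. The authors' deposited files hold raw UMI counts per gene and cell from Cell Ranger 4.0.0 (mm10 with added reporter sequences), and their processing notes name Seurat 4.0. Strand use and annotation release are not given in the sources used here.

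Cells with over 200 genes, 1000 to 25000 UMIs and under 10% mitochondrial UMIs were kept, and Scrublet doublets were removed. Clusters (Scanpy 1.11.5, 2000 variable genes, 30 components, 15 neighbors, Leiden resolution 1) were made without 52 genes (members, listed genes and reporters) and named from marker lists, leaving 2 clusters unnamed. UMIs were summed per aorta and type, or per subset with 20 or more cells per aorta, and tested by edgeR 4.0.16 quasi-likelihood fits (TMM, filterByExpr, R 4.3.3) with Benjamini-Hochberg adjustment over all genes. DESeq2 1.42.0 was an alternative. Intervals are exact Poisson or Clopper-Pearson at 95%. Methods were tested on simulated data.

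Cell types of 1 aorta come from the same animal, so aorta number pairs them, and deviations from the type means correlated at 0.0501 to 0.203 over 9084 genes. The members, lists and tests were chosen with earlier results of these data known. Named listed genes were those called with the largest fold change, up to 3 per list and direction, and the values of 1 listed gene are not reported here. Positions are from GENCODE M21, and start windows from RefSeq.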

Additional observations from a re-analysis of the deposited data

How the results depend on the processing

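Of 592 alternative values of the members' fold changes between cell types, 570 were counted as the same. For values with a test this meant the same direction and call. With 1 aorta left out there was no call, and it meant the same direction and a shift within a limit set from the SE of the main fit. In 12 values the shift passed that limit. All 94 alternative counts stayed within 1.5 times. The fits with the aorta as a replicate block changed none of 48 calls. Reversals occurred at small differences: Col4a5 in SMCs against fibroblasts (-0.017 by DESeq2, adjusted p = 0.915), Col4a4 in endothelial cells against fibroblasts (0.10 with 5000 to 25000 UMIs per cell, and with either aorta left out -0.37 to 0.14) and Col15a1 in endothelial against mesothelial cells (0.40 with doublets kept). Calls were lost for Col4a5 in endothelial against mesothelial cells (-0.86 at 5000 to 25000 UMIs, -0.65 with doublets kept). They were gained for Col4a6 in SMCs against fibroblasts (1.11 at 5000 to 25000 UMIs) and for Col4a1 in SMCs against endothelial cells (1.04 with no filter on low counts, 1.03 with the members in the clustering, 1.00 without subsets led by another class). By DESeq2, Col4a1 and Col15a1 in SMCs against fibroblasts had adjusted p of 0.343 and 0.502. The cause was not tested. The SMC share of UMIs moved by more than 1 SD in 27 of 56 alternative values. Values with 1 aorta left out always lie within 1 SD of the mean of 2, so these could not count as moved. The 27 all came from the other settings. The SMC share ranged from 78.6% to 93.7% for Col18a1, 59.8% to 65.4% for Col4a1 and 4.89% to 9.37% for Col4a3. Leaving out 1 aorta left no residual degrees of freedom and gave fold changes only. Leaving out the low-UMI SMC cluster or the mixed subsets was chosen after seeing the data.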

Other observations

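Endothelial subset 9 was too small in aorta 1 to enter the test (15 and 29 cells) and was led by Retnla, Rgcc, Gpihbp1 and Car4, the last 2 of which are known from capillaries. It had 2825 and 1599 CPM of Col4a1 and 1726 and 977 of Col4a2, above the values of every tested endothelial subset in both aortas, with Col15a1 at 98.1 and 25.4 CPM and Col18a1 at 98.1 and 12.7.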
